A study of Mus musculus with 48 samples.

Results

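The collagen genes of the adult mouse lung were taken as every gene of the expression table whose symbol was written as Col, a number, a and a number, and whose value was above 0 in at least 24 of 48 mice. Values were FPKM, the number of sequenced fragments of a gene corrected for the length of its transcripts and for the total of the library. Of 47561 genes, 44 had such a symbol and 33 of these met the rule. Just inside the limit lay Col25a1, which was above 0 in 30 mice. Just outside lay Col9a3 and Col22a1, each above 0 in 23 mice, and Col4a5 and Col4a6 were listed at 0 in all 48. Col4a5 and Col4a6 were the only collagen genes of the table on chromosome X. Whether they were silent or not measured was not tested.

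Collagens are the main structural proteins of the extracellular matrix, built of chains that wind into a triple helix, which needs glycine at each turn of a repeating glycine-X-Y triplet. Fibrillar collagens (I, III, V) give the airways, vessels and alveolar septa their tensile strength, collagen IV forms the sheet-like network of the alveolar and capillary basement membranes, and collagen VI forms beaded filaments that link cells to both. Others coat fibrils, sit in the cell membrane, or carry the helix broken into short pieces, as the multiplexins XV and XVIII of vascular and epithelial basement membranes do. In the lung, fibroblasts, smooth muscle cells, endothelium and epithelium all make collagens, each its own set.

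The difference between a fibrillar and a network-forming chain can be read in the coding sequence. In the reference transcripts (GENCODE, build GRCm38), the longest unbroken run of glycine triplets held 338 triplets in Col1a1, 344 in Col3a1 and 339 in Col5a2, against 40 in Col4a1, 87 in Col6a1, 61 in Col8a1 and 30 in Col18a1. Each line below gives 54 bases, read 5′ to 3′ on the coding strand, with glycine codons in capitals. The Col1a1 stretch (codons 168 to 185) opens its long run, and the Col4a1 (codons 154 to 171) and Col18a1 (codons 804 to 821) stretches show where the first run is broken.
Col1a1: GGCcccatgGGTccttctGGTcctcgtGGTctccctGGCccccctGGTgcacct
Col4a1: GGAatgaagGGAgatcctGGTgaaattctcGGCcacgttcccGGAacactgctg
Col18a1: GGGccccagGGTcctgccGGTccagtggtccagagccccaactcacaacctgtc

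The 48 lungs came from adult C3H/HeN (C3H) and C57Bl/6 (C57B) mice of both sexes, named below C3HM, C57BM, C3HF and C57BF, with M for males and F for females. Each mouse received a single intraperitoneal injection of saline or of aurothioglucose (ATG, 25 mg/kg), a gold compound that inhibits thioredoxin reductase, and was then kept in room air or in hyperoxia (over 95% oxygen) for 96 h. Strain, sex, injection and air gave 16 groups of 3 mice, with 1 mouse per library of whole lung RNA. Groups follow the sample labels, since the series description speaks of ATG in all mice while the labels name saline in 24. The labels give no substrain of C57Bl/6, for which the series description names J and the methods of the study N. The labels give no preparation or sequencing batch.

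Sequencing depth could not be read from FPKM values, so no counting error is given and precision rests on the number of mice. Of the markers of lung cells, those of alveolar type 2 cells, led by the surfactant protein gene Sftpc, summed to 5754 to 49358 FPKM in the saline mice, and the cartilage markers to 1.18 FPKM or less. A few libraries stood apart. The 3 C3HM saline room air mice correlated with each other at r = 0.930 to 0.956 over log2 values, and mouse 19 (C57BM, saline, hyperoxia) and mouse 33 (C3HF, saline, hyperoxia) correlated with the mice of their own groups at no more than 0.948 and 0.950. The club cell transcript Scgb1a1 took 10.4 to 30.2% of the summed FPKM in room air mice and 1.20 to 7.17% in hyperoxia mice, so that a fall in a few abundant transcripts leaves a larger share for all others. For this reason each test was repeated after rescaling every mouse by the median ratio over genes, and the result is given where it changed a call.

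In the whole set of mice, room air and hyperoxia pooled, median FPKM over the 48 mice was highest for Col3a1 at 198.6 (107 to 355), Col4a1 at 194 (54.0 to 711), Col4a2 at 162 (47.9 to 523) and Col1a2 at 62.1 (26.7 to 101). The order turned with air: in saline mice the median of Col3a1 was 157 against 85.9 for Col4a1 in room air, and 205 against 381 in hyperoxia. Over all mice Col6a1 (49.4), Col6a2 (41.7) and Col1a1 (37.0) followed, and their ranges overlapped with that of Col1a2. At the other end 12 members had a median below 1 FPKM, from Col27a1 at 0.826 down to Col25a1 at 0.0292. Together the 33 collagens made up 0.0637 to 0.380% of the summed FPKM of a mouse. In saline C3H mice this share had a median of 0.127% in room air (0.0725 to 0.156%) and 0.213% in hyperoxia (0.176 to 0.228%), without overlap. In saline C57B mice it had a median of 0.0940% in room air and 0.266% in hyperoxia, and no hyperoxia mouse fell to the highest room air mouse (0.226 to 0.380% against 0.0802 to 0.148%). Much of the rise lay in Col4a1 and Col4a2, whose medians over the saline mice went from 85.9 and 73.0 FPKM to 381 and 278. In saline C57B mice the divisor, the summed FPKM, was also lower in hyperoxia, at 510933 to 555403 against 607830 to 663798. The share thus does not show a rise of collagens as a whole.

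The first comparison asked how collagen transcripts differ between hyperoxia and room air in mice given saline, averaged over strain and sex (12 against 12 mice). Transcripts of the basement membrane chains Col4a1 and Col4a2, of Col18a1, of the minor fibrillar chain Col5a2 and of Col8a1 rose several-fold, while Col6a3, Col14a1 and others fell, and the major fibrillar chains of collagens I and III did not pass the test. Of 33 collagens, 26 reached 1 FPKM in at least 3 of these mice and were tested. By limma with Benjamini-Hochberg adjustment over 16321 genes, 7 were higher (26.9%) and 8 were lower (30.8%) in hyperoxia, beside 31.8% of all tested genes called higher and 28.3% called lower. The share of collagens called was thus near that of all genes, and the median log2 change was 0.07 for the 26 collagens and 0.01 for all genes. Of the 8 lower, 3 (Col27a1, Col17a1 and Col7a1) reached the filter only through room air mice, where they were high, so that the filter favoured a fall. All 3 were also called with a filter of any value above 0. In bulk lung a transcript level cannot tell fewer cells of a type from less RNA per cell.

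**Figure D1:**
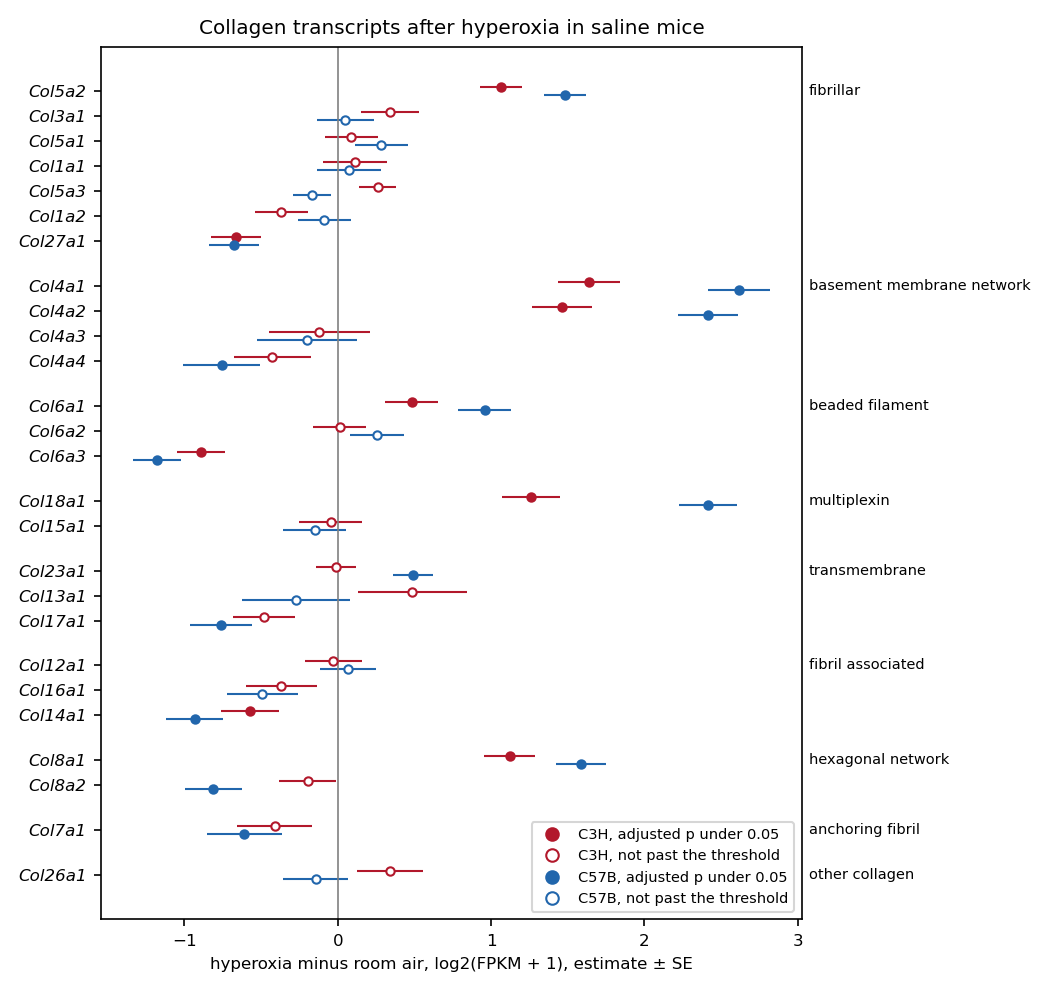
Log2 change (hyperoxia minus room air, on the log2(FPKM + 1) scale, with SE) of the 26 tested collagens in saline mice, for C3H and C57B mice (12 mice each, 6 per air), ordered by collagen class; filled points passed an adjusted p of 0.05. Col4a1, Col4a2 and Col18a1 lie farthest to the right and farther in C57B than in C3H, whereas the chains of collagens I and III passed the test in neither strain.

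Among the collagen IV genes, which encode the chains of the basement membrane network, Col4a1 ranged from 54.0 to 151 FPKM (median 85.9) in room air and from 215 to 711 (median 381) in hyperoxia. Col4a2, whose product joins that of Col4a1 in the same triple helix, ranged from 47.9 to 124 (median 73.0) in room air and from 169 to 523 (median 278) in hyperoxia. All 12 hyperoxia mice lay above all 12 room air mice for both genes. The log2 changes were 2.13 ± 0.14 (SE; limma adjusted p = 1.67e-10) for Col4a1 and 1.94 ± 0.14 (limma adjusted p = 3.98e-10) for Col4a2. Col4a3 and Col4a4, whose chains form the specialised network of the alveolar and glomerular basement membrane, did not move this way. Col4a3 changed by -0.16 ± 0.23 (limma adjusted p = 0.573). Col4a4 fell, from a median of 12.5 (6.78 to 15.2) to 8.60 (2.21 to 13.0) FPKM with overlapping mice, by 0.59 on the log2 scale (SE 0.18; limma adjusted p = 0.00699), and in males alone Col4a4 changed by -0.15 (limma adjusted p = 0.504).

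The collagen IV genes lie in head-to-head pairs, which is why their start sites are shown. In GRCm38, Col4a1 (chr8:11198423-11312826, minus strand) and Col4a2 (chr8:11312805-11449287, plus strand) overlap at their annotated 5′ ends by 22 bases, at chr8:11312805-11312826, 72.7% of which are G or C. These bases are given below on the plus strand, with the letters GGGCGG, the core of a GC box, in capitals.
Col4a1 and Col4a2: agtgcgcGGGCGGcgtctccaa
Col4a4 (chr1:82448423-82586849, minus strand) and Col4a3 (chr1:82586921-82722059, plus strand) start 71 bases apart. Within each pair the ratio moved little beside that between the pairs, and its median was higher in hyperoxia for both. The ratio of Col4a1 to Col4a2 FPKM within a mouse was 1.04 to 1.34 in saline room air mice and 1.28 to 1.48 in saline hyperoxia mice, and that of Col4a3 to Col4a4 had a median of 1.65 (0.962 to 2.67) and 2.31 (1.91 to 2.94). Between the pairs the proportion moved far more. Col4a1 stood at 3.66 to 7.25 times Col4a3 in the room air mice (median 4.60) and at 8.36 to 64.3 times in the hyperoxia mice (median 27.7), with no overlap. Over all collagens, the letters GGGCGG, searched on both strands, were in 18 of 29 RefSeq promoters of 27 members (the 250 bases before the start, which leave out the 22 bases above), against 32.7% of 32851 promoters, and CCAAT was in 10 of 29, against 33.8%. TATAAA was in 4 (12.4% of all promoters), ACGTG in 5 (16.6%) and TGANTCA in 1, that of Col6a1 (6.75%).

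The multiplexin Col18a1, whose C-terminal fragment is endostatin, ranged from 4.92 to 17.0 FPKM (median 9.63) in room air and from 14.6 to 58.5 (median 38.0) in hyperoxia. Of the 12 hyperoxia mice, 11 lay above every room air mouse. The log2 change was 1.84 ± 0.13 (limma adjusted p = 5.79e-10). The other multiplexin, Col15a1, changed by -0.10 ± 0.15 (limma adjusted p = 0.584), and the within-mouse ratio of Col18a1 to Col15a1 went from a median of 2.58 (1.20 to 3.54) to 7.75 (2.35 to 34.2).

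Of the 7 fibrillar chains tested, 1 rose and 1 fell. Col5a2, a chain of collagen V that is built into collagen I fibrils and limits their width, ranged from 9.34 to 18.5 FPKM (median 11.5) in room air and from 28.0 to 42.7 (median 31.6) in hyperoxia. No mouse of one air overlapped with the other, and the log2 change was 1.27 ± 0.10 (limma adjusted p = 1.28e-09). Its partner chain Col5a1 changed by 0.19 (limma adjusted p = 0.197), so that Col5a2 stood at 2.07 to 4.00 times Col5a1 in room air and at 4.76 to 8.33 times in hyperoxia. Col3a1, which lies next to Col5a2 on chromosome 1, ranged from 122 to 268 FPKM in room air and from 116 to 263 in hyperoxia, a change of 0.19 ± 0.13 (limma adjusted p = 0.211). For the chains of collagen I, the main fibrillar collagen of bone and tendon, the changes were 0.09 ± 0.15 for Col1a1 (limma adjusted p = 0.612) and -0.23 ± 0.12 for Col1a2 (limma adjusted p = 0.117), both with overlapping mice. Col27a1 fell from a median of 1.57 (0.594 to 2.71) to 0.604 (0.378 to 0.876) FPKM, with a log2 change of -0.67 ± 0.12 (limma adjusted p = 4.83e-05), and reached 1 FPKM in 10 room air mice and in no hyperoxia mouse. Under the alternatives the Col27a1 change ran from -1.203 to -0.5044.

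The 3 tested chains of collagen VI, which normally assemble into a single molecule, went different ways. Col6a1 had 22.1 to 57.3 FPKM (median 40.4) in room air and 39.3 to 98.1 (median 68.2) in hyperoxia. Col6a3 had 16.0 to 45.4 FPKM (median 27.4) in room air and 7.28 to 24.8 (median 11.8) in hyperoxia. For Col6a1 the highest mice were in hyperoxia, for Col6a3 they were in room air, and the groups overlapped for both. The log2 changes were 0.72 ± 0.12 for Col6a1 (limma adjusted p = 4.12e-05), 0.13 for Col6a2 (limma adjusted p = 0.37) and -1.04 ± 0.11 for Col6a3 (limma adjusted p = 1.33e-07). Within a mouse, the ratio of Col6a1 to Col6a3 rose from a median of 1.53 (0.752 to 3.35) to 6.53 (1.96 to 11.9).

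A like split was seen in collagen VIII, a hexagonal network of vessel walls. Col8a1 had 1.31 to 2.45 FPKM (median 1.71) in room air and 3.73 to 13.1 (median 6.31) in hyperoxia, without overlap. The log2 change was 1.35 ± 0.12 (limma adjusted p = 5.84e-09). Col8a2, the other chain, fell from a median of 4.11 (1.18 to 6.22) to 2.38 (1.52 to 3.59) FPKM, by 0.51 on the log2 scale (limma adjusted p = 0.00256). In males alone Col8a2 changed by -0.11 (limma adjusted p = 0.725). The ratio of Col8a1 to Col8a2 was 0.214 to 1.26 in room air and 1.48 to 5.25 in hyperoxia.

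**Figure D2:**
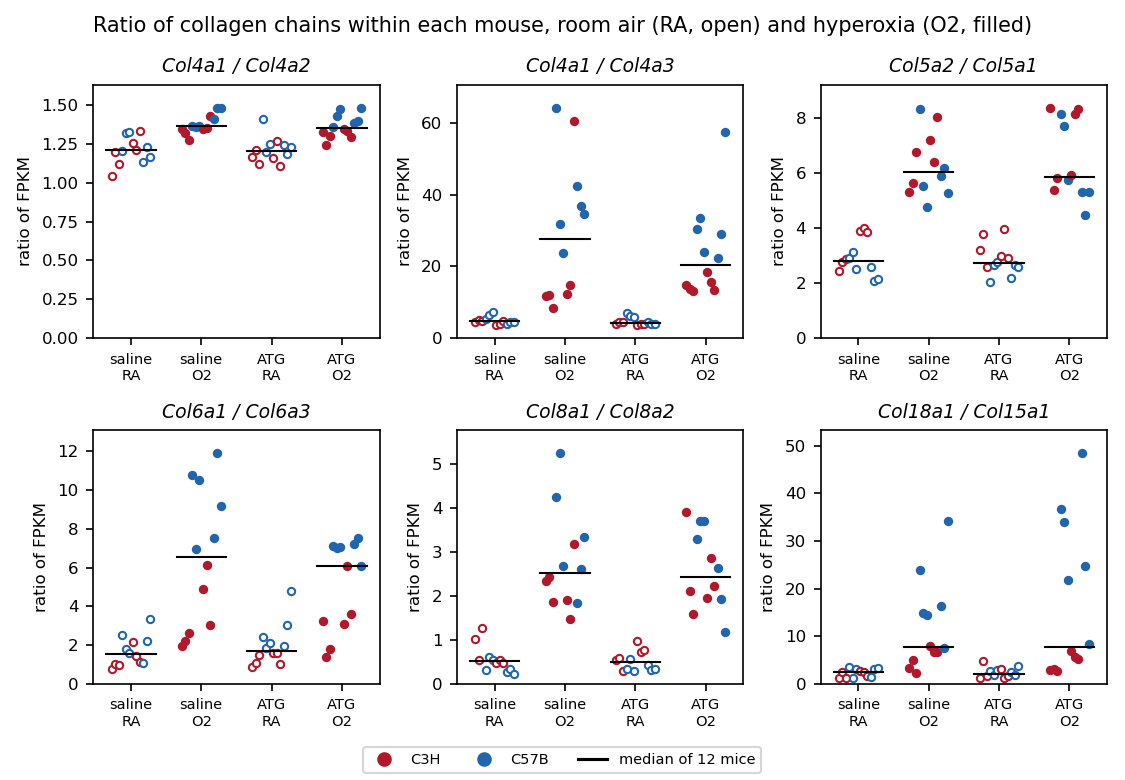
Within-mouse ratio of FPKM for 6 pairs of collagen chains, each point 1 mouse coloured by strain, in saline and ATG mice kept in room air or hyperoxia, with open symbols for room air, filled symbols for hyperoxia and the median of 12 mice as a line. The medians of all 6 ratios are higher in hyperoxia in both injections, that of Col4a1 to Col4a2 by the least, from 1.21 to 1.36 in saline mice.

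The fibril-associated collagens, which coat fibrils and set how they pack, gave 2 falls and no rise among 3 tested. Col14a1 had 3.26 to 17.2 FPKM (median 8.13) in room air and 2.80 to 6.10 (median 4.51) in hyperoxia, with overlap, and a log2 change of -0.75 ± 0.13 (limma adjusted p = 6.26e-05). In males alone it was -0.30 (limma adjusted p = 0.289). Col16a1 fell by 0.43 (SE 0.16; limma adjusted p = 0.0281), with overlapping mice (5.68 to 31.4 against 3.65 to 14.5 FPKM), and this call was lost without any 1 of 8 mice (3, 8, 15, 19, 26, 33, 37 and 44) and without C3HM mice 1 and 3 together. Of the transmembrane collagens, Col17a1 of the hemidesmosome fell from 0.320 to 1.76 FPKM (median 1.02) to 0 to 0.794 (median 0.200), by 0.62 on the log2 scale (SE 0.14; limma adjusted p = 0.000861), and reached 1 FPKM in 6 room air mice and in no hyperoxia mouse. Under the alternatives the Col17a1 change ran from -1.675 to -0.4845. Col23a1 rose by 0.24 ± 0.09 (limma adjusted p = 0.0304), a call lost with median ratio scaling and without any 1 of 9 mice (1, 3, 7, 8, 14, 20, 27, 33 and 45). Col13a1 changed by 0.11 ± 0.25, with 48.3 FPKM in mouse 33. Col7a1, the anchoring fibril of epithelial basement membranes, fell by 0.51 (SE 0.17; limma adjusted p = 0.0147), at 0.0996 to 3.09 FPKM in room air and 0.0539 to 1.04 in hyperoxia, a call lost with quantile scaling (adjusted p = 0.0711). It reached 1 FPKM in 5 room air mice and 2 hyperoxia mice, and its change ran from -1.238 to -0.3533 under the alternatives.

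**Figure D3:**
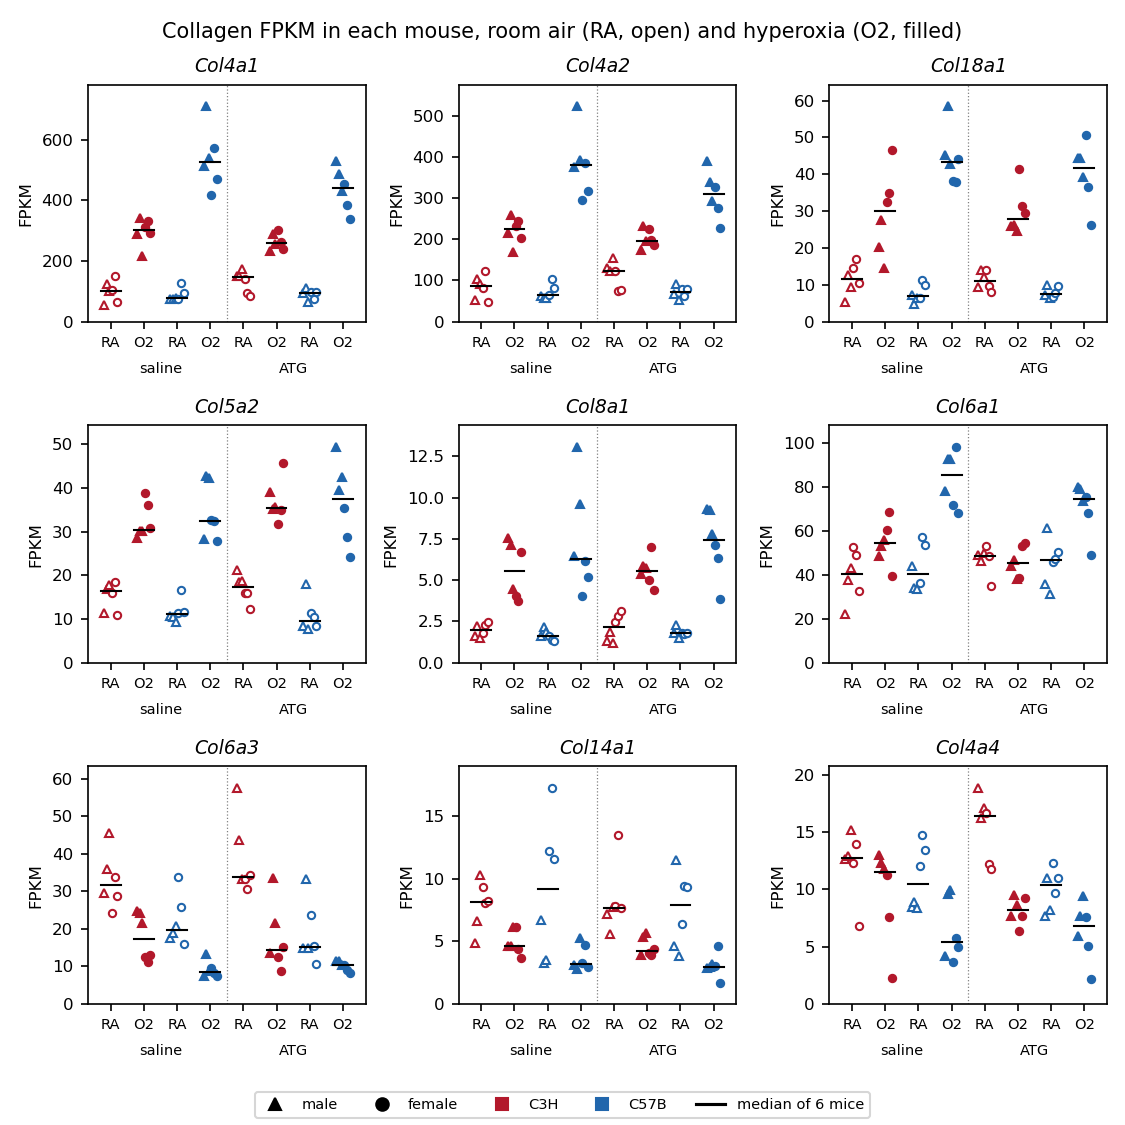
FPKM of 9 collagens in each of the 48 mice, by strain, injection and air; triangles are males, circles females, open symbols room air, filled symbols hyperoxia, and lines the median of 6 mice. In saline mice, all hyperoxia mice lie above all room air mice for Col4a1, Col4a2, Col5a2 and Col8a1, and Col6a3 is lower in hyperoxia. The share of all genes that separate so is not given.

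Whether the response differed between the strains was tested as the difference between their hyperoxia effects in the same fit. Within C3H saline mice 6 collagens were higher and 3 lower, beside 25.3% of all genes higher and 12.5% lower. Within C57B saline mice 7 were higher and 7 lower, beside 25.5% of all genes higher and 30.0% lower. Of those lower, Col27a1 in both strains and Col17a1 and Col7a1 in C57B reached the filter only through room air mice, where they were high. The C57B call of Col7a1 was lost with the filter of any value above 0 (limma adjusted p = 0.0541). It was also lost with quantile scaling (limma adjusted p = 0.28) and without any 1 of 8 mice. Median ratio scaling moved the split in C3H to 5 higher and 5 lower collagens, and that of all genes from 4130 higher and 2039 lower to 2932 and 3085, since it shifted the median of all genes from 0.10 to -0.02. For the difference itself (C3H minus C57B), 3 collagens that rose had a smaller rise in C3H, and none had a positive difference. Of all genes, 8.71% had a positive and 2.81% a negative difference. With median ratio scaling 5 collagens had a negative difference, adding Col5a2 and Col23a1. All genes went from 1422 positive and 458 negative to 912 and 1084. Cell markers with a positive difference were Inmt (fibroblast), Rgs5 (pericyte), Cldn5 (endothelial) and Sftpa1 (alveolar type 2). Also positive were Cd79a and Cd3e (leukocyte) and Top2a (proliferation). Inmt, Sftpa1, Cd79a and Cd3e were called lower in hyperoxia in both strains, so their positive difference is a smaller fall in C3H. Rgs5 and Top2a were called lower in C57B alone, and Cldn5 higher in C3H and lower in C57B. Negative were Cspg4 (pericyte), called higher in C57B alone, and Emcn (endothelial), called lower in C3H alone. The part of these markers in the collagen differences was not tested.

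The 3 collagens were Col18a1, Col4a1 and Col4a2. In hyperoxia, Col4a1 reached 215 to 343 FPKM (median 302) in C3H and 419 to 711 (median 526) in C57B, from 54.0 to 151 (median 102) and 74.1 to 127 (median 76.8) in room air. Col4a2 reached 169 to 260 (median 224) in C3H and 297 to 523 (median 381) in C57B, from 47.9 to 124 (median 86.5) and 56.9 to 103 (median 64.2). Col18a1 reached 14.6 to 46.5 (median 30.0) in C3H and 37.8 to 58.5 (median 43.3) in C57B, from 5.21 to 17.0 (median 11.6) and 4.92 to 11.2 (median 6.89). For Col4a1 and Col4a2 the strains did not overlap in hyperoxia and overlapped in room air, and for Col18a1 they overlapped in both. The effects differed by -1.15 ± 0.27 on the log2 scale for Col18a1 (limma adjusted p = 0.00964), by -0.98 ± 0.28 for Col4a1 (limma adjusted p = 0.0312) and by -0.95 ± 0.28 for Col4a2 (limma adjusted p = 0.0305). The calls of Col4a1 and Col4a2 were lost without any 1 of mice 3, 9, 20, 25, 26, 37 and 44, which left only Col18a1, and that of Col4a2 also without mouse 14 and with quantile scaling. With the filter of any value above 0 both were lost. Without C3HM mice 1 and 3 in room air, a choice made after the data were seen, the differences were -1.41, -1.22 and -1.14.

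The remaining collagens gave no call for the strain difference. Col6a1 rose in both strains, by 0.48 in C3H (limma adjusted p = 0.0338) and by 0.96 in C57B, with a difference of -0.48 (limma adjusted p = 0.209), and its call in C3H was lost with median ratio scaling and without any 1 of mice 1, 8, 9, 27, 31 and 32. The fall of Col14a1 in C3H was not called without mouse 3 or mouse 33. Col8a2 fell by 0.81 in C57B and its difference of 0.61 did not pass (limma adjusted p = 0.131). Between sexes no collagen had a different hyperoxia effect by limma, beside 0.0368% of all genes called in either direction. At an unadjusted p under 0.05 there were 8 of 26, beside 18.2% of all genes, and leaving out mouse 19 gave 2 calls, Col14a1 and Col8a2, beside 6.45% of all genes.

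The genes that make, cross-link and break down collagen were read alongside, as 84 genes in 10 lists, of which 76 were tested in the saline mice. In hyperoxia 29 were higher and 23 were lower, beside the 31.8% of all genes called higher and 28.3% called lower, which are also the background of each list below. The enzymes that cross-link collagen gave 4 rises of 5 tested. Lox, lysyl oxidase, went from 11.2 to 29.1 FPKM in room air to 75.0 to 151 in hyperoxia without overlap, a log2 change of 2.62 ± 0.11 (limma adjusted p = 2.8e-13), and Loxl4, Loxl1 and Loxl2 rose by 1.29, 0.64 and 0.51. Of the genes for prolyl and lysyl hydroxylation, which stabilises the helix, 3 of 13 rose (P4ha3 by 0.67, Plod3 by 0.34, P4hb by 0.25) and 5 fell (P4ha1 by 0.70, Plod2 by 0.67 and P3h3 by 0.38 among them). Of 8 genes for chaperoning, glycosylation and export, Fkbp10 and Colgalt1 rose by 0.74 and 0.40, and Colgalt2, Sec24d and the collagen chaperone Serpinh1 fell by 1.69, 0.38 and 0.28. Propeptide processing gave 1 rise of 5, Adamts2 by 1.08, which cuts the N-propeptides of fibrillar procollagens, and 4 falls, with Pcolce2, an enhancer of C-propeptide cleavage, the largest at 2.12 on the log2 scale.

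Fibril-binding proteoglycans gave 3 falls of 5 and no rise, with Ogn and Prelp lower by 1.58 and 1.56 on the log2 scale and Fmod by 0.44. Collagen-degrading enzymes and receptors gave 4 rises and 1 fall of 7. The lysosomal protease Ctsk went from 13.7 to 52.3 FPKM to 78.2 to 243 without overlap, a log2 change of 2.69, Mmp8 and Mmp14 rose by 2.51 and 1.02, and the collagen uptake receptor Mrc2 fell by 0.86. Of 3 inhibitors of degradation, Timp3 and Timp4 rose by 1.13 and 0.38. Collagen receptors gave 2 rises (Itga2 by 0.94, Itgb1 by 0.63) and 2 falls (Itga1 by 0.67, Ddr2 by 0.42) of 6. Basement membrane partners of collagen IV gave 4 rises and 4 falls of 14, among them Nid1 (nidogen) and Lamb1 with rises of 1.15 and 0.35, and Lama4, Lama3 and Pxdn with falls of 0.60, 0.56 and 0.45. Profibrotic signals and matrix proteins gave 7 rises and 1 fall of 10. The matrix protein Tnc rose by 3.45 ± 0.29 and Ctgf by 2.34, and Postn fell by 0.55.

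Markers of the cell types that make collagen also moved with hyperoxia, and their part in the results was not tested. Of 9 fibroblast markers tested, 7 were lower and 1, Pdgfra, was higher. Their summed FPKM had a median of 3576 in room air and 1609 in hyperoxia in C3H, and of 2432 and 530 in C57B. Inmt was the most abundant of them (log2 change -2.88) and Gpc3 was listed at 0 in all 48 mice. Smooth muscle and myofibroblast markers gave 3 rises of 6 (Tagln, the most abundant, by 1.08), with sums of 212 and 331 in C3H and of 192 and 549 in C57B. Pericyte markers gave 1 rise and 2 falls of 6 (sums of 78.7 and 47.4 in C3H and of 64.5 and 29.6 in C57B, led by Higd1b), and endothelial markers 1 rise and 4 falls of 7 (sums of 1570 and 1521, and of 1162 and 931, led by Cldn5). Epithelial markers fell, 3 of 5 for alveolar type 1 cells (led by Ager) and 5 of 6 for alveolar type 2 cells with 1 rise, the latter with sums of 28773 and 12468 in C3H and of 40424 and 9831 in C57B. Of the others, mesothelial markers gave 2 falls of 5 (led by Msln), leukocyte markers 3 rises and 2 falls of 6 (led by S100a8), cardiac muscle markers 4 falls of 5 (led by Actc1) and markers of proliferating cells 3 falls of 4. The basal epithelial list had 1 tested gene, with no call and Krt5 at 0 in most mice, and none of the 8 cartilage markers reached the filter, with Acan, Matn1, Matn3, Lect1 and Ucma at 0 in most mice.

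The 24 mice given ATG share no animal with the saline mice and gave the same comparison of air in separate lungs. Col4a1, Col4a2, Col18a1, Col5a2 and Col8a1 had all 12 hyperoxia mice above all 12 room air mice, and Col17a1 had them all below. This is stated without the share of all genes that separate so, and Col17a1 reached the filter only through room air mice. Of 26 collagens tested 7 were higher and 9 lower in hyperoxia, beside 35.8% of all genes higher and 26.0% lower. With median ratio scaling the calls were 6 and 11, beside 30.8% and 31.2% of all genes. Col18a1 went from 6.34 to 14.1 FPKM (median 9.50) to 24.5 to 50.5 (median 33.9), and Col4a1 from 65.0 to 173 (median 98.3) to 233 to 530 (median 321). The log2 changes were 1.77 ± 0.11 for Col18a1 (limma adjusted p = 2.26e-11), 1.65 ± 0.09 for Col4a1 (limma adjusted p = 6.53e-12), 1.48 ± 0.10 for Col4a2, 1.39 ± 0.11 for Col5a2 and 1.31 ± 0.09 for Col8a1.

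On the log2(FPKM + 1) scale, the largest falls in ATG mice were those of Col6a3, Col14a1, Col17a1 and Col13a1. Col6a3 changed by -0.97 ± 0.16 (8.07 to 33.6 FPKM in hyperoxia against 10.5 to 57.5 in room air) and Col14a1 by -0.87. Col17a1 changed by -0.81 (0 to 0.278 against 0.337 to 1.72), and by -2.27 to -0.738 under the alternatives. It reached the filter only through room air mice. Its median went from 0.980 to 0.120 FPKM and that of Col6a3 from 31.9 to 11.3, so the order holds on this scale only. Col13a1, a transmembrane collagen of cell junctions, changed by -0.80 ± 0.12 (4.17 to 12.9 against 8.53 to 18.5; limma adjusted p = 4.75e-06). Both Col6a3 and Col13a1 overlapped between airs. Col3a1, the collagen III chain, had a median of 128 FPKM (107 to 287) in room air and 233 (154 to 355) in hyperoxia, with overlap, a rise of 0.66 ± 0.14 (limma adjusted p = 0.000266). Col4a3 fell by 0.56 (SE 0.14; limma adjusted p = 0.00148). Col6a1 rose by 0.31 ± 0.10 (limma adjusted p = 0.0118), a call lost with median ratio scaling (adjusted p = 0.0733) and with quantile scaling (adjusted p = 0.285). The strains were set side by side in ATG mice without a test. In hyperoxia Col4a1 reached 233 to 303 FPKM in C3H and 338 to 530 in C57B, without overlap, from 86.2 to 173 and 65.0 to 110 in room air. The strains overlapped in hyperoxia for Col4a2 (175 to 232 in C3H and 228 to 389 in C57B) and for Col18a1 (24.5 to 41.6 and 26.3 to 50.5). Of the pathway genes 77 were tested, with 27 higher and 24 lower beside the same shares of all genes as above, with rises of Tnc (3.67) and Cyr61 (2.26) and falls of Pcolce2, Prelp and Colgalt2 of 2.54, 2.01 and 1.95. Among cell markers, fibroblast genes gave 1 rise and 7 falls of 9, pericyte genes 1 and 4 of 6, and endothelial genes 5 falls of 7. Alveolar type 1 genes gave 1 rise and 3 falls of 5, and alveolar type 2 genes 1 and 5 of 6. Smooth muscle and myofibroblast genes gave 3 rises of 6. The part of these markers in the collagen results was not tested.

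**Figure D4:**
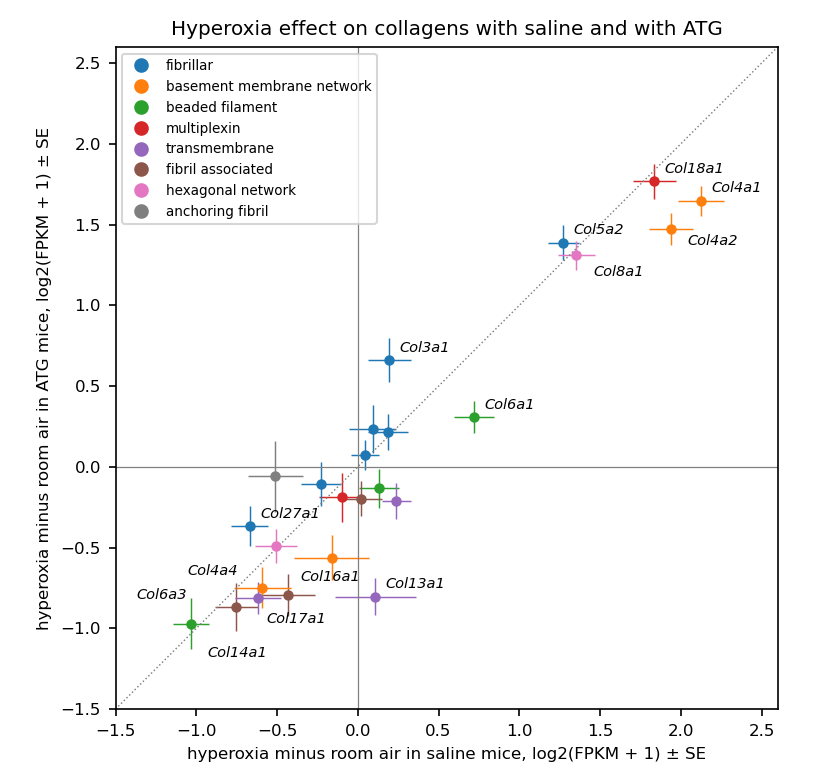
Hyperoxia effect (log2 change with SE) of the collagens tested in both sets, in saline mice on the horizontal axis and in ATG mice on the vertical axis, which come from separate animals; the diagonal marks equal effects. Col4a1, Col4a2, Col18a1, Col5a2 and Col8a1 lie at the upper right, Col6a3 and Col14a1 at the lower left, and Col3a1, Col13a1 and Col4a3 passed the test in ATG mice alone.

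Whether the effect of hyperoxia itself differed between injections was tested over all 48 mice, which are the same mice as in the comparisons above. No collagen of 27 tested was called by limma, beside 2.77% of all genes in either direction, and 6 had an unadjusted p under 0.05, beside 18.8% of all genes. The difference (ATG minus saline) was -0.91 for Col13a1 (limma adjusted p = 0.0713), -0.48 for Col4a1 (limma adjusted p = 0.125) and 0.47 for Col3a1 (limma adjusted p = 0.187). Median ratio and quantile scaling each gave 1 call, Col23a1, stated without the share of all genes called under these scalings. Of the pathway genes, Spp1 (-1.18), Ctgf (-0.81), Timp3 and Lox (-0.62) had a smaller effect with ATG and none a larger one.

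ATG was also compared with saline within each air. In room air no collagen of 27 tested differed by limma, beside 0.0185% of all genes in either direction, 1 had an unadjusted p under 0.05, beside 6.64% of all genes, and no pathway gene was called. In hyperoxia 1 of 26 was lower with ATG and none was higher, beside 3.89% of all genes higher and 1.58% lower. It was Col16a1, with 2.51 to 13.8 FPKM (median 5.96) in ATG mice and 3.65 to 14.5 (median 8.49) in saline mice, a log2 change of -0.51 ± 0.14 (limma adjusted p = 0.0376). The mice overlapped over nearly the whole range, and the call was lost without any 1 of 14 of the 24 mice, with an adjusted p of at most 0.0718. For all genes, median ratio scaling moved 617 higher and 251 lower to 262 and 369. Of 77 pathway genes, Serpinh1 was higher by 0.27 and 5 were lower, among them Spp1 by 0.92, Lox by 0.40 and Nid1 by 0.38 on the log2 scale. Of the marker lists, 2 endothelial genes were lower and 1 alveolar type 1 and 1 proliferation gene were higher with ATG.

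The 12 saline mice kept in room air, which are also the controls of the first comparison, were compared between strains and between sexes. Between the strains 3 of 24 collagens tested were higher in C3H than in C57B and none was lower, beside 3.92% of all genes higher and 7.87% lower. Col23a1, a transmembrane collagen, had 11.6 to 19.9 FPKM (median 14.7) in C3H and 8.82 to 10.6 (median 9.36) in C57B, without overlap. Col12a1, a fibril-associated collagen of dense connective tissue, had 10.1 to 18.0 (median 13.5) and 3.46 to 11.7 (median 6.40). Col15a1 had 4.27 to 7.76 (median 5.99) and 2.06 to 4.66 (median 3.29). Col12a1 and Col15a1 overlapped in a small part of their range. For Col12a1 the strains separated in males (11.7 to 18.0 FPKM in C3HM and 3.46 to 4.44 in C57BM). In females they overlapped (10.1 to 17.2 in C3HF and 8.36 to 11.7 in C57BF). The log2 differences were 0.95 ± 0.16 for Col12a1 (limma adjusted p = 0.00177), 0.74 ± 0.17 for Col15a1 (limma adjusted p = 0.014) and 0.62 ± 0.13 for Col23a1 (limma adjusted p = 0.00923). Without C3HM mice 1 and 3, Col15a1 had an adjusted p of 0.0506. With each mouse left out in turn, 3 to 7 collagens were called, stated without the share of all genes in those fits. At an unadjusted p under 0.05 there were 9 of 24 collagens, beside 26.3% of all genes.

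The strain order of Col12a1 and Col15a1 was seen in the other conditions too, given here without a test. In hyperoxia with saline the medians were 14.1 FPKM in C3H and 6.89 in C57B for Col12a1, and 5.87 and 2.64 for Col15a1. With ATG in hyperoxia Col15a1 had 5.65 to 9.11 FPKM in C3H and 1.04 to 3.15 in C57B, without overlap. Col23a1 overlapped between strains in hyperoxia with saline (11.1 to 17.4 against 10.9 to 17.7). For all genes, median ratio scaling moved 609 higher and 1223 lower in C3H to 927 and 983. Of 75 pathway genes tested, 8 were higher in C3H, led by Spp1 (1.09), Ctsk (0.76) and Hspg2 (0.72), and 3 were lower (Mmp9, Creb3l1 and Tgfb3, by 1.62, 0.61 and 0.44 on the log2 scale). In the same comparison 4 alveolar type 1, 2 fibroblast and 1 endothelial marker were higher in C3H, and 4 alveolar type 2, 4 leukocyte and 1 mesothelial marker were lower, and their part in the collagen differences was not tested.

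Col6a5, a chain of collagen VI that can take the place of Col6a3, lay under the filter of 1 FPKM in the saline mice and separated the strains in every condition. In saline room air mice it had 0.516 to 0.941 FPKM (median 0.755) in C3H and 0 to 0.145 (median 0.0466) in C57B. In hyperoxia with saline the values were 0.0733 to 1.43 and 0 to 0.0190, with ATG in room air 0.585 to 1.96 and 0.0164 to 0.251, and with ATG in hyperoxia 0.173 to 1.77 and 0 to 0.0186. In all 4 conditions every C3H mouse lay above every C57B mouse. With a filter of any value above 0 the log2 difference in saline room air mice was 0.71 (limma adjusted p = 3.4e-05). A filter of 0.1 FPKM in at least 3 mice was met only through the C3H mice, where Col6a5 is high. Its neighbour on chromosome 9, Col6a6, had 0.143 to 0.349 FPKM in C3H and 0 to 0.0609 in C57B in saline room air mice, and the strains did not overlap in 3 of the 4 conditions (log2 difference 0.23; limma adjusted p = 0.00989 with the filter above 0, and not called with that of 0.1, again met only through C3H). Of the 30-base words of the Col6a5 and Col6a6 transcripts, 4.03 and 4.36% occur in another gene, so that a part of their reads could have been split between copies. Both were found after the values were seen.

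**Figure D5:**
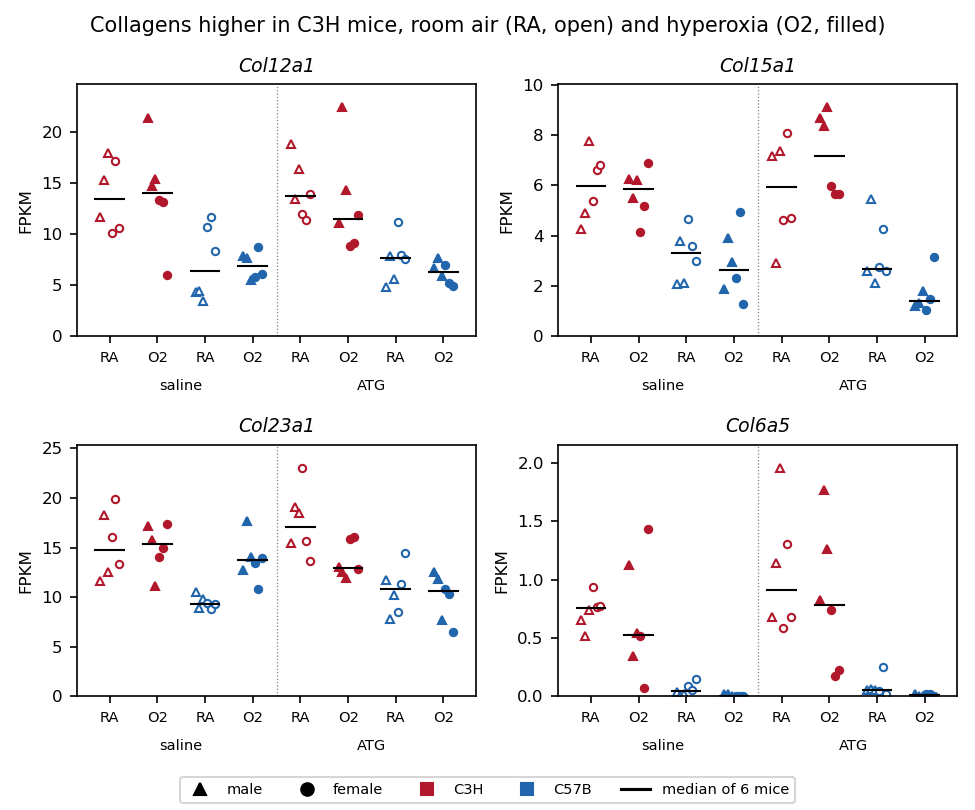
FPKM per mouse of Col12a1, Col15a1, Col23a1 and Col6a5 in C3H and C57B mice by injection and air, with the median of 6 mice as a line; triangles are males, circles females, open symbols room air and filled symbols hyperoxia. For Col6a5 every C3H mouse lies above every C57B mouse within each of the 4 conditions, and Col12a1 and Col15a1 have higher medians in C3H throughout.

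Between the sexes in the same mice no collagen of 24 tested was called by limma, beside 0.669% of all genes in either direction, and 5 had an unadjusted p under 0.05, beside 23.3% of all genes. Col14a1 had the lowest adjusted p. It had 3.26 to 10.3 FPKM (median 5.74) in males and 8.05 to 17.2 (median 10.5) in females, with overlap, a log2 difference (male minus female) of -0.85 ± 0.19 (limma adjusted p = 0.0713). Fitted over all 48 mice, 3 collagens were lower in males, Col14a1, Col18a1 and Col8a2, and leaving out mouse 2 gave the same 3. In those fits 8.80% and 18.8% of all genes were called lower in males. All C57BF mice had 11.6 to 17.2 FPKM of Col14a1, above all C57BM mice (3.26 to 6.72), whereas C3HM and C3HF mice overlapped (4.85 to 10.3 against 8.05 to 9.34). In hyperoxia the sexes overlapped in both strains. Of the pathway genes, Lox was higher in males by 0.71 (limma adjusted p = 0.041).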

How the data were processed

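RNA of whole lung (RNeasy; Illumina directional mRNA libraries; paired reads on a HiSeq2000) was measured in 48 mice. The methods of the study differ, naming the NEBNext Ultra kit with polyA selection and another HiSeq model or its equivalent. The submitters' processing notes name GSNAP, SAMtools, Cufflinks and build mm10. The authors deposited a table of FPKM values per gene and mouse; no counts were used here and depth is unknown. Akap5 was left out, since 7 mice list a failed estimate (999999999). No column of the table was left unused. Members, classes and lists were chosen with earlier results of these data known.

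Values were tested as log2(FPKM + 1) with limma 3.58.1 in R 4.3.3 (trended empirical Bayes), over genes with at least 1 FPKM in at least 3 of the mice fitted, with group means and contrasts averaged over sex or strain. P-values were adjusted by Benjamini-Hochberg over all genes tested, at a threshold of 0.05. Fold changes on this scale understate those of low genes. The labels name separate mice, which are the replicates. Named were the chains of collagens I, III, IV, V and VI, the 4 largest rises and falls per comparison, and the 3 largest pathway changes, of which some are not reported here. Lists covered 10 pathway groups and 12 cell types (fibroblast, smooth muscle and myofibroblast, pericyte, endothelial, alveolar type 1 and 2, mesothelial, cartilage, basal epithelial, leukocyte, cardiac muscle, proliferating). Alternatives were other pseudocounts, filters, scalings, all 48 mice in 1 fit, 1 sex alone and each mouse left out. The fit was tested on simulated data. Sequences came from GRCm38 with GENCODE annotation and from RefSeq promoters. Figures were drawn with matplotlib 3.10.9.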

Additional observations from a re-analysis of the deposited data

Results flagged for a closer look

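In 104 sets of 6 mice (a collagen in 1 strain and air, with saline), 7 held a mouse far from the other 5 by Dixon's ratio, where chance gives about 5% of sets. Mouse 33 (C3HF, hyperoxia) held a pair of these, the highest Col13a1 of its set at 48.3 FPKM (others 10.2 to 17.9) and the lowest Col4a3 at 4.81 (others 22.4 to 28.7). Mouse 20 (C57BM, hyperoxia) had the highest Col18a1 at 58.5 FPKM (others 37.8 to 45.3) and the highest Col6a3 at 13.3 (others 7.28 to 9.54). In room air, mouse 25 (C3HF) had 0.493 FPKM of Col26a1 (others 0 to 0.182), mouse 27 (C3HF) 6.78 of Col4a4 (others 12.3 to 15.2) and mouse 38 (C57BF) 16.6 of Col5a2 (others 9.34 to 11.6). The hyperoxia effect differed between strains by limma for Col18a1 (-1.15), Col4a1 (-0.98) and Col4a2 (-0.95), C3H minus C57B on the log2 scale.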

How the results depend on the processing

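No paired analysis was possible because the mouse numbers 1 to 48 are unique and no number is shared between groups. No collagen that was called in a comparison changed direction under the alternatives run for it: of these single-gene values, 1833 kept their call and 94 lost it. The counts below stand without the share of all genes called in the same fits, so they show nothing particular to collagens. The number of collagens called moved as follows. Hyperoxia in saline mice gave 15 and, in males alone, 9 (Col14a1, Col4a4 and Col8a2 among those lost). The strain difference gave 3, 5 with median ratio scaling and 1 with a filter of any value above 0. Strain in room air gave 3, 6 with the filter above 0, 5 with that of 0.1 FPKM, 5 with quantile scaling and 8 over all 48 mice. Sex in room air gave 0 and, over all 48 mice, 3. ATG in hyperoxia gave 1, 0 with the filter above 0 and 2 over all 48 mice. The difference between injections gave 0, and 1 with median ratio and with quantile scaling. Leaving out each mouse in turn gave 13 to 16 calls for hyperoxia in saline mice, 8 to 11 in C3H, 13 to 15 in C57B, 1 to 4 for the strain difference, 0 to 2 for the difference between sexes, 16 to 18 for hyperoxia in ATG mice, 3 to 7 for strain in room air (7 without mouse 2), 0 to 3 for sex in room air, 0 to 0 for ATG in room air, 0 to 3 for ATG in hyperoxia and 0 to 2 for the difference between injections. Causes were not tested. FPKM values carry no depth, so low collagens such as Col6a6 have unknown counting error, and with 3 mice a group small effects may go uncalled.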

Other observations

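The within-mouse ratio of Col1a2 to Col1a1, the chains of collagen I, had a median of 1.75 (1.40 to 2.28) in saline room air mice and 1.44 (1.25 to 1.67) in saline hyperoxia mice, and of 1.88 and 1.49 in ATG mice. The ratio of Col6a1 to Col6a2 had a median of 1.02 and 1.55 in the saline mice. In saline hyperoxia mice the median ratio of Col4a1 to Col4a3 was 12.1 in C3H and 35.8 in C57B. These ratios were not tested. The strain difference in the hyperoxia effect (C3H minus C57B) was also called for pathway genes. It was positive for 5 of 76 tested and negative for 13, beside 8.71% of all genes positive and 2.81% negative. These shares were 1422 and 458 genes, and 912 and 1084 with median ratio scaling. Among the pathway genes were Prelp (1.54), Pcolce2 (1.38) and P4ha1 (0.97), and Tnc (-2.74) and Fn1 (-1.41). Prelp and Pcolce2 were called lower in hyperoxia in both strains, so their positive difference is a smaller fall in C3H. P4ha1 was called lower in C57B alone. Col26a1, a low collagen outside the classical families, was lower in C3H than in C57B in saline room air mice with the filter of any value above 0 (log2 difference -0.72; limma adjusted p = 0.00431). The filter of 0.1 FPKM in at least 3 mice was met only through the C57B mice, where it is high.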
